A study of Homo sapiens with 4 samples.

Results

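Peaks from an RNA immunoprecipitation of HuR were examined in the human triple-negative breast cancer line MDA-MB-231. Those taken had their centre in the first intron of a RefSeq transcript. They were the rows of the deposited peak list with an intronic annotation that read intron 1 of any number of introns, and the host gene was the gene of the transcript named in that annotation. There were 909 such peaks among 14149 in all (6.42%) and among 8756 intronic peaks (10.4%), and they lay in 709 host genes of the 3312 genes with any peak. Another 7401 peaks were in internal introns and 446 in last introns. The RNA came from untreated cells grown in DMEM with fetal bovine serum, and was isolated with a mouse anti-HuR antibody in 2 samples and with mouse IgG in 2 control samples, as biological duplicates per the study's methods. Libraries were made without poly(A) selection, with a TruSeq RNA kit that does not mark the strand of the RNA. The list gave 1 peak score, 1 strand and 1 focus ratio per peak for the whole series, so no value below carries an SD, a replicate number or a comparison of HuR with IgG. Peaks are not replicates, no test between classes of peaks was run, and the Wilson 95% intervals given for shares cover counting error only.

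HuR, the product of ELAVL1, is an RNA-binding protein that recognises U-rich and AU-rich stretches, in introns as well as in 3′-UTRs. The first intron follows the exon in which transcription starts. It is often the longest intron of a gene, and its beginning often belongs to a CpG island that covers the promoter, so it is rich in G and C. An intron begins with the 5′ splice site, which starts with GU in the RNA, and ends with a branch point, a pyrimidine-rich tract and AG before the next exon.

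The label was checked against annotated transcripts. A GENCODE 44 transcript of the host gene with an intron 1 at the peak centre was found for 891 of the 909 peaks, and the number of introns also matched for 847. These peaks lay in 745 distinct introns, of which 741 (99.5%) began with GT and 745 (100%) ended with AG in the genome. The intron ends are those of the GENCODE transcripts, so these shares do not test the label of the peaks. The canonical transcript also placed the centre in its intron 1 for 775 peaks. Of all 909 peaks, 474 were on the + strand and 435 on the − strand, 82 were on non-coding RefSeq transcripts, and 27 were in the single intron of their transcript.

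The 4 host genes with the highest-scoring peaks are shown first, because they hold both kinds of place at which the peaks were found: PTMA and CNN3 beside exon 1, and PHLDA1 and TMED2 beside exon 2. The bases are those of the peak that lie in the intron, read from hg38 on the strand of the gene, with runs of 5 or more T and the pentamer ATTTA in capitals. PTMA and TMED2 are on the + strand, and CNN3 and PHLDA1 on the − strand.
PTMA, chr2:231708752-231708945: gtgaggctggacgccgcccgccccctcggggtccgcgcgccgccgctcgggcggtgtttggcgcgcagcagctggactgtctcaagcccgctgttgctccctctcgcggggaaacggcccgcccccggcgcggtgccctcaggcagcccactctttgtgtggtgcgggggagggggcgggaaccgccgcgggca
CNN3, chr1:94926661-94926837: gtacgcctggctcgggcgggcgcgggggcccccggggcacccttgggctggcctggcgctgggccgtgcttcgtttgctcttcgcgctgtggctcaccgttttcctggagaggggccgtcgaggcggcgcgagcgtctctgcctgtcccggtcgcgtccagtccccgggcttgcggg
PHLDA1, chr12:76030093-76030122: cctacttcactcggtgtcatttctttccag
TMED2, chr12:123586717-123586746: acattttatgcatttctctcttgcctccag
The PTMA and CNN3 stretches start with the first base of the intron, and held 76.8% and 75.1% G and C with no run of 5 T and no ATTTA. Their 5′ splice sites, with the last 3 bases of exon 1, the GT in capitals and the next 4 bases, read aagGTgagg at chr2:231708749-231708757 and aagGTacgc at chr1:94926832-94926840. For PHLDA1 and TMED2 only the last 30 bases before exon 2 are given, and both end in a pyrimidine-rich stretch and AG.

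A pair of introns with a peak at each end, ANKRD1 on the − strand and CD9 on the + strand, is shown to compare the ends within 1 intron. They had the highest exon 1-side scores among introns with a peak at both ends, and were chosen after their values were seen.
ANKRD1, exon 1 side, chr10:90920811-90921000: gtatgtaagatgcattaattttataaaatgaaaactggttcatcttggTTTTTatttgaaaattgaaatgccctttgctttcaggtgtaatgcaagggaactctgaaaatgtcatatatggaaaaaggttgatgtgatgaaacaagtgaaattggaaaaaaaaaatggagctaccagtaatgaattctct
ANKRD1, exon 2 side, chr10:90920349-90920571: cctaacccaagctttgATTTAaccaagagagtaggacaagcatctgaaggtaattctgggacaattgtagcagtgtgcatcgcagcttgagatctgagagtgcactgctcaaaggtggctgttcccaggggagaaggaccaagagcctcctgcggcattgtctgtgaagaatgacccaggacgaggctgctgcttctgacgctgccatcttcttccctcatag
CD9, exon 1 side, chr12:6200566-6200595: gtgagtgagcgcgactgccgcgcgctcctc
CD9, exon 2 side, chr12:6225130-6225425: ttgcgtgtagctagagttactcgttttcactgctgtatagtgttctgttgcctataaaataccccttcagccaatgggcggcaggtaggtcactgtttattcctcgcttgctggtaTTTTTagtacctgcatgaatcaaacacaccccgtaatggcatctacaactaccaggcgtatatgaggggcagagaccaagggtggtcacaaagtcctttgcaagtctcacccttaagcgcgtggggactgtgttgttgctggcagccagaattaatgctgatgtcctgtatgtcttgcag
For CD9 the exon 1 side is limited to the first 30 bases of the intron. Over the whole 347 bp of each peak, the GC content in CD9 was 70.6% on the exon 1 side and 49.0% on the exon 2 side. In ANKRD1 it was 40.6% and 50.4%, the opposite order.

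With every peak counted, first-intron peaks lay at the 2 ends of the intron in nearly equal numbers. Exon 1 was the nearer exon for 438 of 891 peaks (49.2%, 45.9 to 52.4%) and exon 2 for 453. The exon 1 share depended on the counting. It was 57.8% with only the highest-scoring of overlapping peaks kept, and 41.5% for peaks wholly inside the intron. Within 1 peak length, 347 bp, of the nearer exon were 390 peaks on the exon 1 side and 393 on the exon 2 side. The 745 host introns had a median length of 11158 bp, so these places are a small part of the intron. On the exon 1 side, 181 peak centres (41.3%) lay within 50 bp of the exon and another 108 (24.7%) within 100 bp. On the exon 2 side, 100 (22.1%) lay within 50 bp before the exon and another 106 (23.4%) within 100 bp. The wider range from 100 to 200 bp held 160 (35.3%).

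The strand of the peak went with the side. On the exon 1 side, 419 of 438 peaks (95.7%, 93.3 to 97.2%) were on the strand of the gene, and on the exon 2 side 413 of 453 (91.2%, 88.2 to 93.4%) were on the opposite strand. Within 347 bp of the exon, only 4 peaks on each side had the other strand. Most exceptions lay deeper in the intron, where 15 of 48 exon 1-side peaks were on the opposite strand and 36 of 60 exon 2-side peaks were on the strand of the gene. In internal introns the same shares were 98.3% on the strand of the gene beside the exon before and 98.4% opposite beside the exon after. Since the kit does not mark strand, the strand of a peak does not give that of the RNA.

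**Figure D1:**
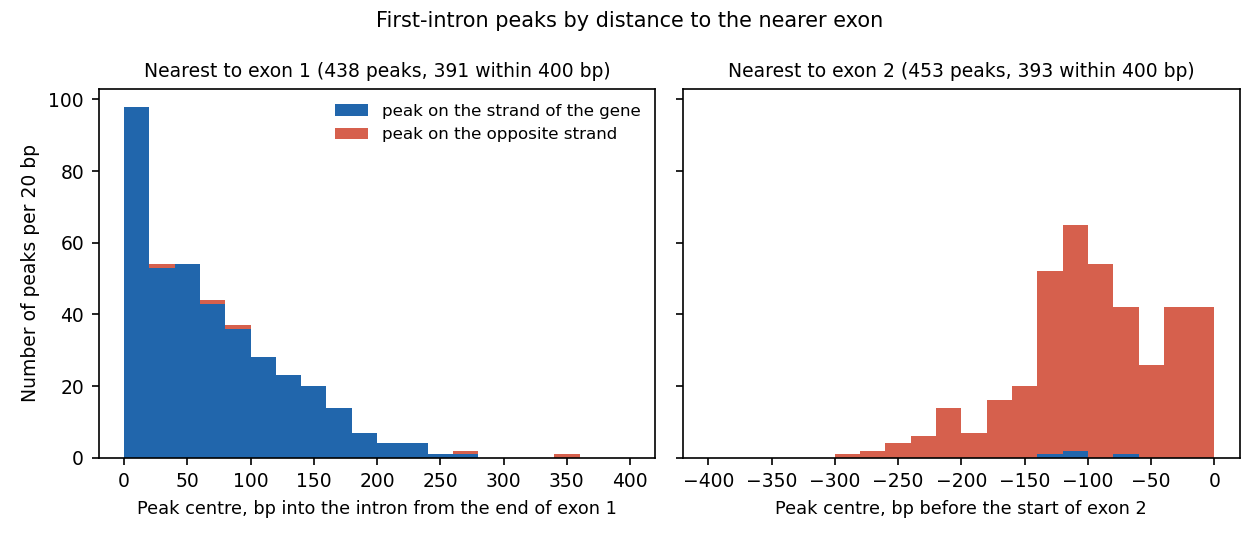
Number of first-intron peaks per 20 bp of distance from the peak centre to exon 1 (left, bp into the intron) or to exon 2 (right, bp before the exon), for the nearer of both exons and up to 400 bp. Blue bars are peaks on the strand of the gene and red bars peaks on the opposite strand; beside exon 1 nearly all are blue with most centres within 100 bp, and beside exon 2 nearly all are red with the highest bars between 80 and 140 bp.

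Moved 173 bp against its own strand, from its centre to its edge, a peak of either side usually fell into the neighbouring exon. This held for 334 of 438 peaks on the exon 1 side, which fell into exon 1 (76.3%, 72.1 to 80.0%). It held for 305 of 453 peaks on the exon 2 side, which fell into exon 2 (67.3%, 62.9 to 71.5%). These shares follow largely from the distances and strands given above and are no separate observation. Exon 1 of the host transcripts was short, with a median of 193.5 bp on the exon 1 side, and exon 2 had a median of 134 bp on the exon 2 side. Few peaks were wholly intronic: 171 (19.2%) had no base in an exon of the host transcript. How the tags were shifted or extended before peaks were placed is not stated by the authors, and its part in these positions was not tested.

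The sides differed in the focus ratio. The focus ratio, a fraction that describes how the tags of a peak are placed about its centre, had a median of 0.825 (quartiles 0.714 and 0.922) on the exon 1 side. On the exon 2 side the median was 0.442 (0.380 and 0.511), so the quartile ranges did not overlap. In internal introns the medians were much closer, 0.557 beside the exon before (0.506 and 0.611) and 0.483 beside the exon after (0.432 and 0.533). The exon 1-side median of first introns was thus above that of the matching end of internal introns, and the exon 2-side median was below its counterpart. In the pairs of opposite-strand peaks described below, the focus ratio nearly equalled the share of the first-intron peak in the summed score. A higher focus ratio is therefore not read as a sharper peak.

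They also differed in base composition. The median GC content of the 347 bp peaks was 67.7% (58.8 and 73.2%) on the exon 1 side and 37.8% (33.4 and 44.4%) on the exon 2 side. Internal introns had 36.6% beside the exon before and 36.0% beside the exon after, near the exon 2 side of first introns. The ratio of observed to expected CpG dinucleotides had a median of 0.767 on the exon 1 side and 0.261 on the exon 2 side. The deposited annotation placed the centre in a CpG island for 301 exon 1-side peaks (68.7%, 64.2 to 72.9%) and for 8 exon 2-side peaks (1.77%). In internal introns this share was 0.473%, and in last introns 0.448%.

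**Figure D2:**
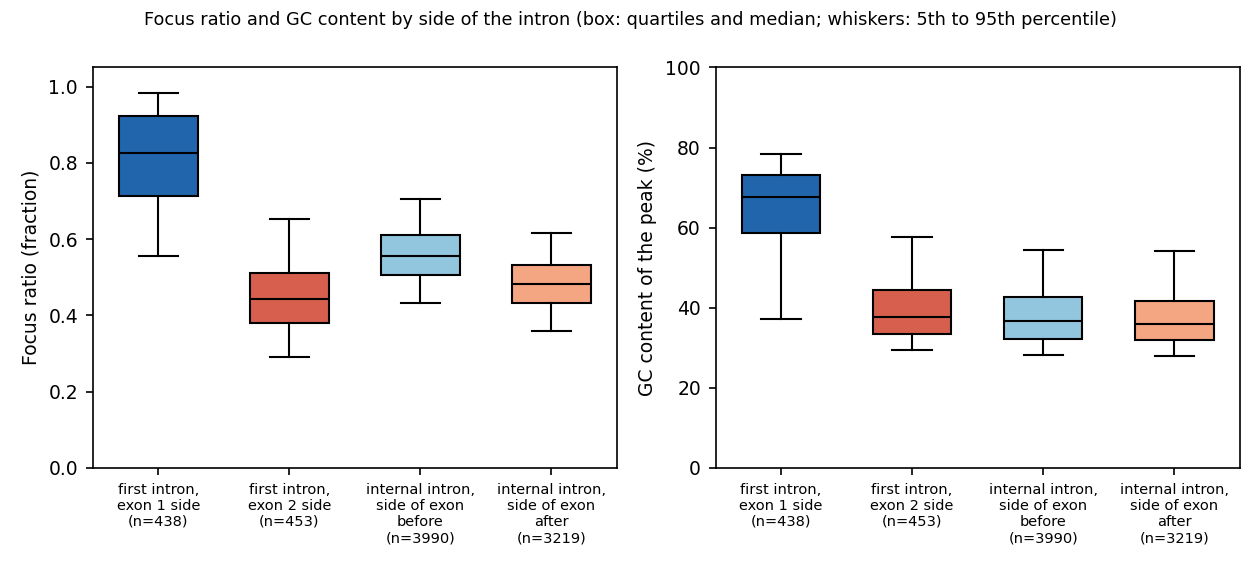
Focus ratio (left, a fraction) and GC content of the peak (right, in %) for peaks in first and internal introns by the nearer exon; boxes give the quartiles and the median, whiskers the 5th to 95th percentile, n the number of peaks. The exon 1 side of first introns has the highest medians in both panels, 0.825 and 67.7%, and the other classes lie at 0.442 to 0.557 and at 36.0 to 37.8%.

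Among exon 1-side peaks, the 301 in CpG islands had a median focus ratio of 0.853 and a GC content of 70.6%. Both values were lower in the 137 outside CpG islands, with a focus ratio of 0.733 and a GC content of 51.9%. The 8 exon 2-side peaks in CpG islands had a focus ratio of 0.606, above the 0.442 of that side as a whole. How much of the gap between the sides goes with CpG islands was not tested.

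The U-rich and AU-rich motifs were read on the strand of the gene over the whole 347 bp. TTTTT was present in 108 exon 1-side peaks (24.7%, 20.9 to 28.9%) and in 355 exon 2-side peaks (78.4%, 74.3 to 81.9%). ATTTA was present in 52 (11.9%, 9.17 to 15.2%) and 239 (52.8%, 48.2 to 57.3%). Over all first-intron peaks the shares were 52.2% for TTTTT and 32.9% for ATTTA, and over all peaks of the list, which have the same length, 68.5% and 50.6%. In internal introns TTTTT was in 73.5% of peaks beside the exon before and in 79.3% beside the exon after, and ATTTA in 57.6% and 59.4%. On either strand, TTTTT was in 60.5% of first-intron peaks and 81.2% of all peaks, and ATTTA in 45.2% and 67.6%. Base composition moved with these shares, since the exon 1 side had the high GC content, and its part in them was not tested. A match is a description of the letters and is no measure of binding.

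The scores of both sides overlapped widely. The median score was 35.95 (quartiles 17.7 and 83.1) on the exon 1 side and 29.6 (15.9 and 64.6) on the exon 2 side. Over all 909 peaks it was 31.6 with a range of 8.81 to 2358.1, against 27.9 in internal introns, 34.4 in last introns and 34.0 over the whole list. The share of exon 1-side peaks was 43.9% (37.6 to 50.5%) in the lowest quartile of scores and 54.7% (48.2 to 61.1%) in the highest, with overlapping intervals. The CpG island share was 26.0% (20.7 to 32.1%) in the lowest quartile and 41.3% (35.0 to 47.8%) in the highest. By length of the host intron, the focus ratio on the exon 1 side was 0.779 in 25 peaks of introns up to 1000 bp, 0.833 in 187 peaks up to 10000 bp and 0.8215 in 226 peaks of longer introns. On the exon 2 side it was 0.4495, 0.434 and 0.4445, so the gap between the sides was present at each length.

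Many peaks had a companion on the opposite strand across the neighbouring exon. A companion within 1000 bp was found for 88 of 390 peaks beside exon 1 (22.6%, 18.7 to 27.0%) and for 224 of 393 peaks beside exon 2 (57.0%, 52.1 to 61.8%). Beside exon 1 the companions were annotated at the promoter (53), in the 5′-UTR (25), in an exon (6) or in a non-coding transcript (4). The first-intron peak had the higher score in 86 of these 88 pairs, by a median of 1.76 on the log2 scale. Beside exon 2 the companion was mostly in intron 2 (196 of 224) at a median offset of 343 bp, and the first-intron peak was the higher in 25 of the 224 pairs, with a median log2 ratio of −0.50. Peaks with a companion had higher scores, with medians of 136.9 against 29.6 beside exon 1 and 43.95 against 20.6 beside exon 2. Beside exon 1, the median focus ratio was 0.7635 with and 0.87 without a companion, and beside exon 2 it was 0.417 and 0.457. In these pairs the focus ratio nearly equalled the share of the first-intron peak in the summed score of both peaks. The difference was at most 0.05 in 79 of the 88 pairs beside exon 1 and in 219 of the 224 beside exon 2, with median absolute differences of 0.00694 and 0.00148. The focus ratios and the score ratios to companions of these pairs are therefore not separate observations. A companion also had to be in the list itself, whose lowest score was 8.32. A weak peak, or one with a high focus ratio, could lack a listed companion for that reason. The shares with a companion, and the scores and focus ratios with and without one, are thus not read as differences between peaks.

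Of 684 first introns with a peak near an exon, 99 had peaks at both ends. The exon 1-side peak had the higher score in 74 introns and the exon 2-side peak in 25, with a median log2 ratio of 0.71 (quartiles 0.01 and 1.23). The focus ratio was higher on the exon 1 side in 97 of the 99 introns, with medians of 0.833 and 0.425, and the GC content in 93. ANKRD1, which encodes an ankyrin-repeat protein and is a known target of the YAP coactivator, lay in an intron of 652 bp. It had scores of 1272.8 and 1118.8 with focus ratios of 0.947 and 0.422, and it was among the 6 introns in which GC was not higher on the exon 1 side. CD9, a tetraspanin of the cell surface, had scores of 1252.9 and 696.2 in an intron of 24860 bp. AXL, a receptor tyrosine kinase, had 1109.3 and 860.4 in an intron of 1158 bp, and another AXL peak at 833.0 lay before exon 2 of a shorter transcript. PRKAR1A, the regulatory subunit of protein kinase A, had nearly equal scores of 879.0 and 818.6. ELAVL1 itself had the opposite order, with 66.6 on the exon 1 side and 139.2 on the exon 2 side.

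**Figure D3:**
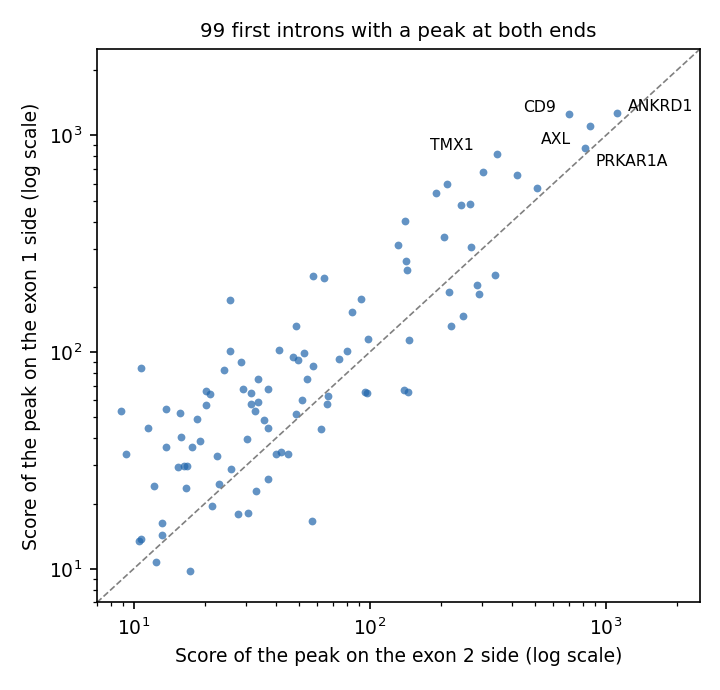
Scores of the peaks at both ends of 99 first introns, exon 2 side on the horizontal and exon 1 side on the vertical axis, both on log scales; each point is 1 intron and the dashed line marks equal scores. Most points, 74 of 99, lie above the line, and ANKRD1, CD9, AXL, PRKAR1A and TMX1 are among the highest.

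The highest-scoring first-intron peak was that of PTMA, which encodes prothymosin alpha, a small acidic nuclear protein whose mRNA is a known HuR target. It had a score of 2358.1, rank 27 of the whole list, and its centre lay 21 bp into the intron in a CpG island, with a focus ratio of 0.786. PHLDA1, a pleckstrin homology-like protein linked to cell death, followed with 2042.4, 1 bp before exon 2 of its only intron of 417 bp, which lies after the stop codon. CNN3, the actin-binding calponin 3, had 1539.0 at 4 bp from exon 1. TMED2, a cargo receptor between the endoplasmic reticulum and the Golgi, had 1367.7 at 100 bp before exon 2. Its centre lay in an AluSz element and in an exon of another TMED2 transcript. EIF5A, a translation factor, had 1364.8 at 158 bp before exon 2.

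The others of the 10 genes were on the exon 1 side: ANKRD1, CD9, CANX, UBE2N and AXL. CANX, the chaperone calnexin, had 1140.1 with a focus ratio of 0.95, at 145 bp from exon 1 and inside an exon of another CANX transcript. UBE2N, a ubiquitin-conjugating enzyme, had 1138.2 with a focus ratio of 0.949, at 9 bp from exon 1. PTMA was the gene among the 10 whose first-intron peak was its highest, with 930.9 for its next peak outside the first intron. In the other 9 another peak was higher, for example 3392.2 in an exon of TMED2 and 3376.1 in the 3′-UTR of CANX.

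**Figure D4:**
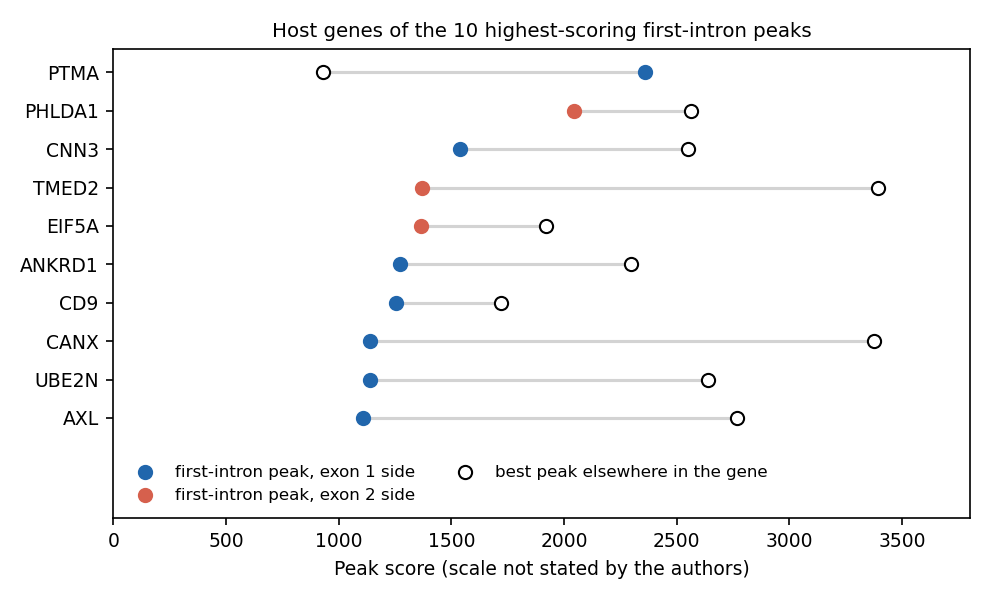
Score of the best first-intron peak (filled, blue beside exon 1 and red beside exon 2) and of the best peak elsewhere in the same gene (open) for the 10 host genes with the highest first-intron scores. The filled point is the higher for PTMA, at 2358.1 against 930.9, and the lower for the other 9 genes.

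Of 709 host genes, 83 had first-intron peaks alone, with a median best score of 19.1. Of the 626 with other peaks, the first-intron peak was the highest in 53 and lower in 573, with a median log2 ratio to the best other peak of −1.16 (quartiles −1.80 and −0.67). A single first-intron peak was found in 550 genes, a pair in 136 and 3 or more in 23, while host genes had a median of 6 peaks in all, against 2 over all genes with a peak. The best of several peaks is likely to be above a single one by number alone, so no difference in score between first introns and other places is read from these counts or from those of the 10 genes.

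Gene groups were counted by the start of the symbol, with the share of all genes with a peak that had one in a first intron, 21.4%, beside them. The list of the secretory pathway and chaperones had the highest share, 24 of 76 (31.6%, 22.2 to 42.7%). Its median best score was 153.8 against 32.8 over all host genes. The symbol rule also took in SECISBP2L and COPS7B, which are not secretory genes. The median used the RAB3GAP2 peak at 376.1, which lay over a pseudogene, so its reads cannot be assigned to RAB3GAP2. Besides TMED2 and CANX, PDIA4, a protein disulphide isomerase, had 571.9 at 4 bp from exon 1. Genes of the translation list had 7 of 28 (25.0%, 12.7 to 43.4%), and the 7 included the kinase genes EIF2AK2 and EEF2K. In this group EIF4E, the cap-binding protein, had 106.7 before exon 2 with a focus ratio of 0.14, and EIF1AX, an initiation factor, had 94.5 beside exon 1 with 0.913. RNA-binding and splicing genes had 11 of 46 (23.9%, 13.9 to 37.9%) with a median best score of 96.4. TRA2A, a splicing regulator, led with 621.1 beside exon 1 in an intron of 518 bp, followed by HNRNPU, an hnRNP protein, with 523.0 before exon 2 and MBNL1, a splicing regulator, with 294.1 beside exon 1.

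Cytoskeleton and adhesion genes had 9 of 34 (26.5%, 14.6 to 43.1%), led by CNN3 and CD9, with TPM3, a tropomyosin, at 513.4 before exon 2. Ubiquitin and proteasome genes had 18 of 68 (26.5%, 17.4 to 38.0%) with a median best score of 36.05. PSMD11, a subunit of the proteasome lid, had 176.4 beside exon 1 with a focus ratio of 0.999, and UBE2E2, a ubiquitin-conjugating enzyme, had 129.0 before exon 2 with 0.372. Kinases and phosphatases had 16 of 72 (22.2%, 14.2 to 33.1%), with PRKAR1A first, then PPP1CB, a catalytic subunit of protein phosphatase 1, at 657.8 and 1 bp from exon 1, and PPP6C, the catalytic subunit of protein phosphatase 6, at 287.8. Solute carriers had 17 of 63 (27.0%, 17.6 to 39.0%), and their highest scores were all on the exon 1 side. SLC38A2, a neutral amino acid transporter, had 427.8, SLC25A24, a mitochondrial carrier, had 402.1, and SLC30A7, a zinc transporter, had 357.0.

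Zinc finger and chromatin genes had the lowest shares and median best scores of the groups. The number and scores of their peaks elsewhere were not compared, so this order is not read as particular to first introns. Zinc finger genes had 15 of 87 (17.2%, 10.7 to 26.5%) with a median best score of 14.2, and the highest were ZNF770 at 60.2, ZNF280C at 54.8 and ZNF460 at 42.3. Chromatin genes had 6 of 35 (17.1%, 8.10 to 32.7%) with a median of 17.15. KMT5A, a histone methyltransferase, had 38.7, KMT2C, another, 28.9, and ARID5B, a DNA-binding protein, 17.9. The KMT2C peak lay 9871 bp from any KMT2C exon, over the pseudogene SEPTIN7P6, with 94.1% identity to the parent gene, so its reads cannot be assigned to KMT2C. The interval of the secretory group, with SECISBP2L and COPS7B counted in, began at 22.2%, close to the 21.4% of all genes. The interval without these genes was not computed, so no excess is read from this group. The intervals of the other groups contained 21.4%, and no test was run on any group. The list of known HuR target mRNAs held 30 symbols, of which 15 had any peak and 3 had one in a first intron: PTMA, ELAVL1 and MSI2.

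Of 14 genes that the study discusses, ELAVL1 and MSI2 had first-intron peaks. Of the 11 peaks of ELAVL1, 2 lay there. The peak at 139.2 was 68 bp before exon 2 with a focus ratio of 0.27, and the peak at 66.6 was 5 bp from exon 1 in a CpG island with a GC content of 85.3% and a focus ratio of 0.904. The highest ELAVL1 peak, at 812.0, was in the 3′-UTR. MSI2, a Musashi RNA-binding protein, had 1 of its 19 peaks there, with a score of 12.7 before exon 2 of a transcript. FOXQ1, CTNNB1 and XIAP had 4, 1 and 3 peaks in other places and 0 in a first intron. The remaining genes of the 14 had 0 peaks in the whole list, so no first-intron share is read from this set.

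Among transcripts with a single intron, PHLDA1 had the highest peak. YWHAG, a 14-3-3 protein, had 394.0 at 19 bp from exon 1, and MEX3D, an RNA-binding protein, 152.9 at 14 bp. Both were in CpG islands. The 27 such peaks had a median score of 25.9 and a focus ratio of 0.671.

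The genes with the most first-intron peaks had them in introns of several transcripts. TFPI, an inhibitor of blood coagulation, had 7, with scores of 12.5, 23.7, 29.6, 31.6, 36.0, 190.6 and 543.8. The highest pair lay at the ends of a 50429 bp intron, at 1 bp from exon 1 and 104 bp before exon 2. The other 5 lay 9909 to 25062 bp from these exons, but all within 226 bp of an exon of another TFPI transcript. BARD1, the partner of BRCA1, had 5 peaks from 23.5 to 58.0. The 2 highest were 17147 and 14840 bp from the nearer exon of the assigned intron, yet 32 and 87 bp from another BARD1 exon. PPA2, a mitochondrial pyrophosphatase, had 5 peaks from 15.4 to 25.9 and no other peak. The list's gene name column named another gene in place of PPA2 for its best peak. ATXN3, a deubiquitinase, and STX6, a membrane fusion protein, had 4 each, up to 17.1 and 48.7.

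Over all 891 placed peaks, 108 (12.1%) lay over 347 bp from both exons of the host intron, with a median score of 23.5. Of these, 70 were within 347 bp of an exon of another transcript of the host gene, and 93 within 347 bp of an exon of any gene. The centre itself lay in an exon of another transcript of the host gene for 87 of 897 peaks, and in an exon of another gene for 39. Either was the case for 13.3% (11.2 to 15.6%). Of those 39 peaks, 13 lay in processed pseudogenes, 2 in transcribed processed pseudogenes, 12 in lncRNA genes, 8 in protein-coding genes and 4 in unclassified genes. The gene name column differed from the host gene for 107 of 901 peaks (11.9%).

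A small set lay far from every exon of the host gene. There were 33 peaks in 26 genes over 1000 bp away, and 14 of them, at 9 places, lay over a processed pseudogene, an intronless copy of another gene's mRNA. Of the 10 highest, 7 did so. The median score was 40.25 over a pseudogene and 14.7 for the other 19. For 12 peaks the bases over the pseudogene could be aligned to a transcript of the parent gene, with 94.1 to 100% identity, and every parent gene had peaks of its own in the list. Reads of parent and copy may share sequence, and how the authors treated reads with several places is not stated, so the source of these reads cannot be told apart here.

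The highest pair was in UNC5D, a netrin receptor gene, with 488.2 on the + strand and 429.2 on the − strand, over LSM12P1. The parent LSM12 had 5 peaks, the best at 362.9, and the identity was 100% for both. UNC5D had no other peak. In RAB3GAP2, which encodes a regulator of the small GTPase RAB18, the peak at 376.1 lay 12186 bp from the nearest exon over MORF4L1P1. MORF4L1, a chromatin protein, had 5 peaks, the best at 849.4, and the identity was 99.4%. The central 300 bases of that peak are shown as an example of a pseudogene copy in a first intron. They are read on the − strand, that of RAB3GAP2, while the copy lies on the + strand, so the 4 runs of T in capitals are runs of A in the copy.
RAB3GAP2, chr1:220253650-220253949: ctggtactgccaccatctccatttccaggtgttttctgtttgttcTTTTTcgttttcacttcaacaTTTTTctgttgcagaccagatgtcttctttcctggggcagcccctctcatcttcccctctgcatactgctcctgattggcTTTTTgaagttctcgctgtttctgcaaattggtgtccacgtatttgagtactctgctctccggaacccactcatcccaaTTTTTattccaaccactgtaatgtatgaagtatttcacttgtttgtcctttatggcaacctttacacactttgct
The only other first-intron peak of RAB3GAP2 had a score of 12.0, at 20 bp before exon 2. PDE3A, a phosphodiesterase gene, had 106.0 and 105.5 over an unnamed pseudogene in a CpG island, and 31.6 without one. Pairs over pseudogenes with scores from 18.6 to 45.5 were in CEP83 (RBMS2P1), ANKH (RBBP4P1) and MIR2052HG (PCBP2P2). Single peaks were in KMT2C (SEPTIN7P6), CDIN1 (LARP4P) and PENK-AS1 (SEPTIN10P1).

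SOD2, mitochondrial superoxide dismutase, had the highest score among the peaks with no pseudogene, 164.2 at 4611 bp from its nearest exon. The nearest exon of any gene began 173 bp from the centre, at the very end of the peak, and belonged to WTAP, a component of the mRNA methylation complex that is encoded on the other strand. The bases shown are the central 300 on the strand of SOD2. On that strand they hold no run of 5 T and no ATTTA, and they have 33.0% G and C. They do hold runs of 5 A, which are runs of T on the strand of WTAP.
SOD2, chr6:159753138-159753437: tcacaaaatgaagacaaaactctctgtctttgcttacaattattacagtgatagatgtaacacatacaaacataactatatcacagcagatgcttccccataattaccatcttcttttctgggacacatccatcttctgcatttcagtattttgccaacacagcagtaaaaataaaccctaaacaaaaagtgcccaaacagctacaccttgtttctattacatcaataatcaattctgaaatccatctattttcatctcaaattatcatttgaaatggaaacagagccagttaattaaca
In CMIP, a peak at 97.2 with a focus ratio of 0.98 lay 22492 bp from any CMIP exon, inside an unclassified gene. In all, 6 of the 19 peaks with no pseudogene were within 347 bp of an exon of another gene. The other 13 had a median score of 13.9, the highest being 80.8 in LHFPL3, and 6 of them were in repeats and 10 held TTTTT.

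**Figure D5:**
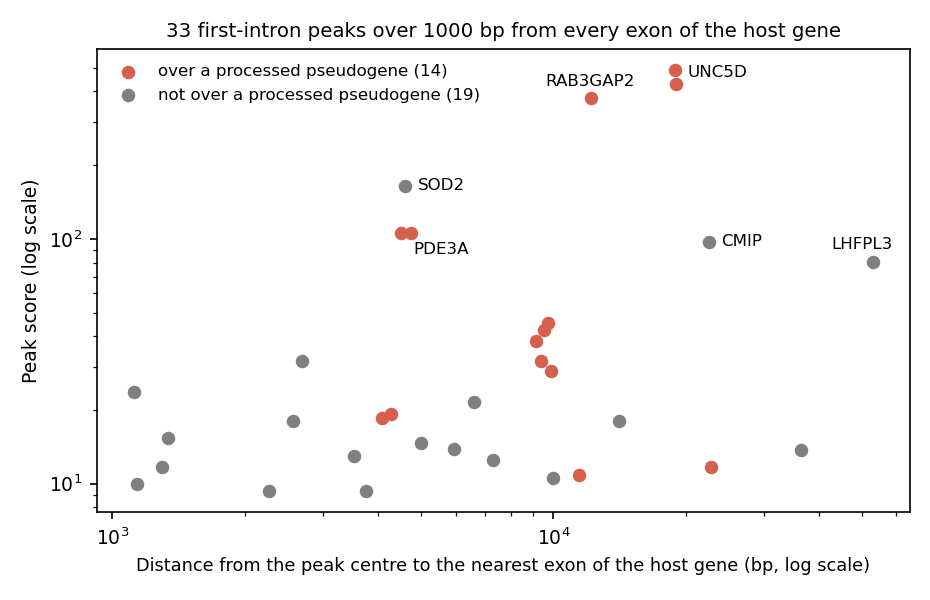
Peak score (vertical) against the distance in bp to the nearest host-gene exon (horizontal), both on log scales, for 33 first-intron peaks over 1000 bp from every such exon. Red points (14) lie over a processed pseudogene and grey points (19) do not; the highest 3 points, in UNC5D and RAB3GAP2, are red.

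Repeats were named at the centre of 94 first-intron peaks (10.3%), against 12.3% in internal introns. The annotation names 1 feature per peak, so a peak in a CpG island cannot be named as a repeat. The share was 5.25% on the exon 1 side and 14.3% on the exon 2 side, but 16.8% (11.5 to 23.9%) of the 137 exon 1-side peaks outside CpG islands, so no difference between the sides is read from it. Their median score was 18.1, and the largest families were Alu with 20 peaks, L1 with 19 and MIR with 18. The TMED2 peak in an AluSz element was the highest of them.

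The host transcripts that were canonical and coding, 493 in number and each counted once, were set beside all 18593 canonical coding transcripts with an intron. Their first introns had a median length of 10721 bp (quartiles 3938 and 28488 bp) against 3647 bp, and exon 1 had a median of 224 bp against 176 bp. The start codon came after exon 1, so that the intron split the 5′-UTR, in 28.6% (24.8 to 32.7%) of them against 39.2%. No first-intron peak was closer than 124 bp to a transcription start site, and the list annotates peaks at a start site to the promoter. Genes with a short exon 1 may be missed for that reason, and its part in the exon 1 lengths was not tested. Whether the genes with a peak were expressed differently from the others was not measured here.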

How the data were processed

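Per the submitters' processing notes, the authors aligned the reads of 2 HuR RIP and 2 IgG RIP samples with STAR to hg38 and called peaks with HOMER. The methods add that peaks were kept by a change in transcript abundance. Settings, threshold, treatment of reads with several places and any pooling of replicates are not given in the sources used here. The deposited peak score is HOMER's own score, of unstated scale, and is no enrichment over IgG. The deposited focus ratio is a fraction from 0 to 1 per the file headers. The deposited distance to the transcription start site, in bp, gave only the smallest distance stated above. With no counts in the list, depth is unknown and the planned test of HuR against IgG was not run.

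Host genes came from RefSeq transcripts (901 of 909 matched) and exons from GENCODE 44 on hg38, the build of the list. Among fitting transcripts, one with the same number of introns was preferred, then the canonical one. Genes were named by score, number of peaks, distance from exons, single introns, the study's discussion and the top 3 of each gene list; ANKRD1 and CD9 sequences, LHFPL3, TMX1 and the other pseudogene hosts were added after their values were seen. Members and lists were chosen with earlier results of these data known. Python 3.11.15, pandas 2.3.3, numpy 2.4.6, scipy 1.17.1, pysam 0.24.0, edlib 1.3.9.post1 and matplotlib 3.10.9 were used, and placement was tested on simulated peaks.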

Additional observations from a re-analysis of the deposited data

How the results depend on the processing

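The 11 summary values of the report were recomputed under 62 alternatives, of which 33 stayed within 1.5 times the count or within the interval of the value and 29 moved. With only peaks at or above the median score of the whole list, 437 peaks in 347 genes remained, with a median score of 76.1. The share near an exon was then 97.2% (95.8% in the report), that nearest to exon 1 52.6% (49.2%), that on the strand of the gene 54.7% (51.3%), that in an exon 173 bp back 84.8% (82.2%), and that with a run of T 48.0% (52.2%), and the median GC content was 52.2% (49.0%). With 1 peak per merged locus the exon 1 side held 57.8%, the strand of the gene 60.2%, TTTTT was in 47.0%, ATTTA in 28.4% (32.9%), and GC was 54.3%. For the 171 peaks wholly inside the intron, in 149 genes, the median score was 23.7, the exon 1 side held 41.5%, 37.4% were in an exon 173 bp back, GC was 41.2%, TTTTT was in 60.8%, ATTTA in 36.8%, and 29.8% (13.3%) lay in an exon of another transcript. Where the canonical transcript had the same intron 1, GC was 52.2%. At 347 bp back, 23.2% were in an exon. TTTTT was in 37.8% on the strand of the peak, and 7 T in 16.7% on the strand of the gene. The cause of these shifts was not tested, but peaks wholly inside the intron are by construction farther from exons. In alternatives chosen after seeing the data, 87.9% were near an exon of the host transcript alone and 98.3% near an exon of any gene. No paired analysis was possible because values of single samples were not given, and for the same reason leaving out a replicate was not run. The list's own thresholds and the unknown depth limit which weak peaks could be seen.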
